A study of Homo sapiens with 6 samples.

Results

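Matrix-attached DNA was mapped in H1 human embryonic stem cells, an established pluripotent line, and the subject here is the stretches of autosome that carry protein-coding genes yet hold very few mapped positions. The 22 autosomes were cut into 1 Mb windows from position 0, and the rows of 3 deposited lists of 400 bp positions were counted in each window by their centre. A window was kept where the 3 lists together gave 1 to 9 rows and at least 1 protein-coding gene of the RefSeq GRCh38 table overlapped it. Of 2510 gene-bearing autosomal windows, 30 met this rule (1.2%), and they are called poor windows below. They held 197 of 114173 autosomal rows and 96 of 19126 autosomal protein-coding genes. The windows were chosen by their row counts, so a low count there is the rule and not a result, and no value below carries a test.

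The study compared untreated H1 cells (hPSC), H1 cells that received an shRNA, a gene-silencing hairpin, aimed at LUC (shLUC, taken here as the hairpin control) and H1 cells with an shRNA aimed at HNRNPU (shHNRNPU), at 2 samples per group. The labels name no allele, clone, delivery route, day or batch, and they describe no agent besides the hairpins. The hPSC cells carried no hairpin, so hPSC and shLUC differ in hairpin delivery as well as in whatever separated the preparations, which cannot be told apart. Each group was given as 1 list, so no replicate error exists for any value, and the level of HNRNPU in the hairpin cells was not analysed here. The labels record polyA RNA as the molecule while their protocol describes DNA from digested nuclei.

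The nuclear matrix is the protein and RNA framework left in a nucleus after soluble proteins and most DNA have been removed, and the DNA that stays with it is read as matrix attachment regions. HNRNPU, also known as scaffold attachment factor A, is an abundant nuclear protein that binds both RNA and attachment DNA. The human genome also holds long tracts of recently duplicated sequence, many next to centromeres and on the short arms of acrocentric chromosomes, where near-identical gene copies and pseudogenes lie side by side. Olfactory receptors, a very large family of odorant-binding receptors of the nasal epithelium, form dense clusters of short genes. POTE and SPATA31 genes belong to families that expanded in primates and are expressed in testis.

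The sequences that follow are shown because they stand at listed starts of the few genes whose promoter window a row touched. RefSeq's promoter table (GRCh38.p14) held 80 of the 96 genes, each with 250 bases before and 50 bases after a listed start. For some genes, among them ARPP21, FOXP2, PCDH15 and ZNF658, that start lies inside the gene's outer boundary. Rows at the outer boundaries of FOXP2 and ZNF658 are therefore not counted as promoter rows. A row of any list overlapped 6 of these 80 windows, 7.5%, beside 43% of 15101 promoter windows of all autosomal protein-coding genes, a difference in the direction that the choice of windows sets. The 250 bases before the start are given 5′ to 3′ on the gene's strand, and capitals mark the recognition sites of the enzymes that cut the nuclei: MspI (CCGG), HaeIII (GGCC), RsaI (GTAC), AluI (AGCT), BamHI (GGATCC) and PvuII (CAGCTG). Each site reads the same on both strands, and each PvuII site contains an AluI site.
NOTCH2 (chr1:120069663-120069912, minus strand): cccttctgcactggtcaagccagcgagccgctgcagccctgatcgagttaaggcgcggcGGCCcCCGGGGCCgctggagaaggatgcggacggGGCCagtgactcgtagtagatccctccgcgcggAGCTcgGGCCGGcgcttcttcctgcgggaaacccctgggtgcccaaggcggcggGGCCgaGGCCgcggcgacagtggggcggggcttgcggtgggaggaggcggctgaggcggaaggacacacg
SEC22B (chr1:120176521-120176770, minus strand): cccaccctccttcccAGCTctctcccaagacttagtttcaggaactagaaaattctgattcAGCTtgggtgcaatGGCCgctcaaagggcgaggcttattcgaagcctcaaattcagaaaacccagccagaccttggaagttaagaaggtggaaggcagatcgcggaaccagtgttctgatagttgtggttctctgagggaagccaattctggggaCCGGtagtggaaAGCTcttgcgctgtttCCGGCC
ARPP21 (chr3:35639275-35639524, plus strand): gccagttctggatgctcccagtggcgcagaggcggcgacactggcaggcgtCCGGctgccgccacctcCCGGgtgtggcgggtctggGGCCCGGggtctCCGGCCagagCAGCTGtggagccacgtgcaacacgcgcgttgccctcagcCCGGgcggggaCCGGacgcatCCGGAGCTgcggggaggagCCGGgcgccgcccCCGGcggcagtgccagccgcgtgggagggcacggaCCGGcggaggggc
EPHA5 (chr4:65670490-65670739, minus strand): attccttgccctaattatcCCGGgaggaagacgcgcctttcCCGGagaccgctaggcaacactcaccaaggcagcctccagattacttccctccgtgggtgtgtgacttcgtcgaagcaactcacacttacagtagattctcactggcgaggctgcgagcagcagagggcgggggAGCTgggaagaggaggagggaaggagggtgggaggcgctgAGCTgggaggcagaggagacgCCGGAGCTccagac
KHDRBS2 (chr6:62286226-62286475, minus strand): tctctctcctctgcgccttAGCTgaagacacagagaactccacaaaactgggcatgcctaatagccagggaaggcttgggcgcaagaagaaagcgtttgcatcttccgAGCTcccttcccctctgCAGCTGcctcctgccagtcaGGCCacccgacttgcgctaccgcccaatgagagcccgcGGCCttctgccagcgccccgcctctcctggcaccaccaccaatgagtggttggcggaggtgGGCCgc
POTED (chr21:13609527-13609776, plus strand): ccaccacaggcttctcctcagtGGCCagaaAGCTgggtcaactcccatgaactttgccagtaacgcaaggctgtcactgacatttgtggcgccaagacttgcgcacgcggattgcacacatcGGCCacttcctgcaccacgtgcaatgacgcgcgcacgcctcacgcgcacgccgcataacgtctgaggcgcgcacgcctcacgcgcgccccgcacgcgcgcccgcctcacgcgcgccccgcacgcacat

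These starts differed in base composition. The share of G and C over the 250 bases was 77.6% for ARPP21, 72.8% for NOTCH2, 65.6% for POTED, 62.4% for KHDRBS2, 61.2% for EPHA5 and 52% for SEC22B. The stretch before ARPP21 held 10 MspI sites, whereas that before POTED held none and only 2 HaeIII sites and 1 AluI site, although it had 32 CpG dinucleotides. For ARPP21, 244 of the 250 bases lay in an hPSC row and 144 in a row of each hairpin list. Rows of both hairpin lists covered 224 of the 250 bases before POTED, and an hPSC row covered 204 before EPHA5. At NOTCH2 the rows covered none of these bases and lay just inside the gene. The KHDRBS2 start lies beyond the end of its poor window, and the hPSC row over all 250 bases is therefore not among the 197.

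The starts of the olfactory receptors in the same windows looked different, and a pair is shown because no site of any of the 6 enzymes lies in their promoter windows.
OR5F1 (chr11:55994626-55994875, minus strand): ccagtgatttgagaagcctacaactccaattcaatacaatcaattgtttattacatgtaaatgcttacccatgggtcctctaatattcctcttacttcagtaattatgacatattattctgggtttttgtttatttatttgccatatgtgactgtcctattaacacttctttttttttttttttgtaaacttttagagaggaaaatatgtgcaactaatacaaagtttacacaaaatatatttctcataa
OR5W2 (chr11:55914583-55914832, minus strand): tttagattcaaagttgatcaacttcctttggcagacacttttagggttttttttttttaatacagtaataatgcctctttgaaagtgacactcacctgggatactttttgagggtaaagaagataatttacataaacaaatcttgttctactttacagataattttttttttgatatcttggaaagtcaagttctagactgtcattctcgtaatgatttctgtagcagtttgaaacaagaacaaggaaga

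G and C made up 28.4% of the bases before OR5F1 and 30.8% before OR5W2. Of the 24 olfactory receptors of the poor windows with an entry in the table, 6 had no site in their 300 bases. OR5F1 and OR5W2 had the lowest shares of these 6 over the 250 bases, and OR4C11 had the highest, 38.4%. Over the 300 bases the share of G and C of the 24 ranged from 24.3% to 47.7% with a median of 34.7%. The median over all 313 autosomal olfactory receptor promoters was 37.7%, and 12.8% of them had no site. A row overlapped 2 of the 313. The plot of promoter composition sets the receptors apart from the 6 promoters with a row, which began at 53.3% G and C over the 300 bases. It does not set other genes without a row apart. These ran from 6.67% to 82.3%, with DUX4 at 73.3% and ROCK1 at 72%.

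**Figure D1:**
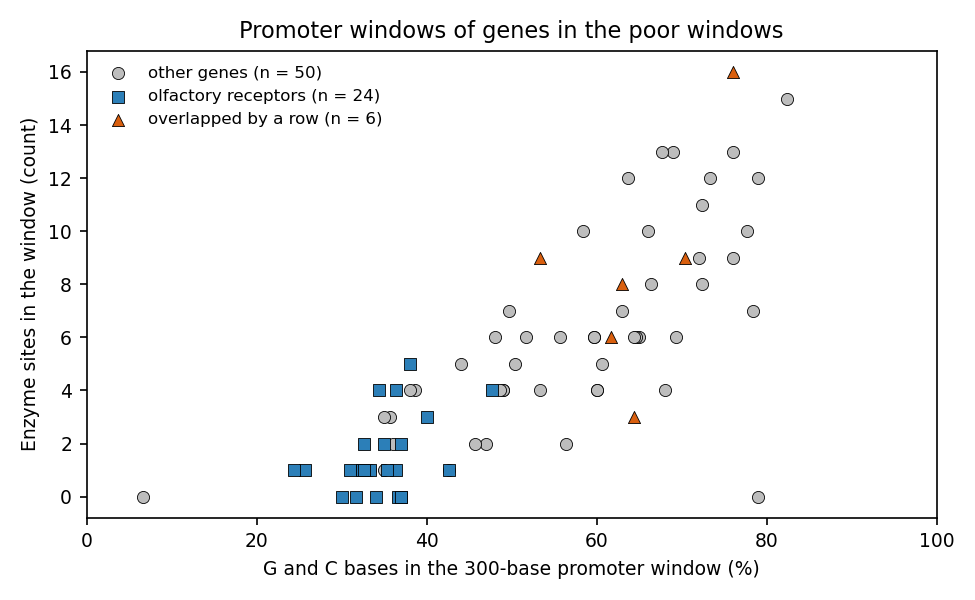
Share of G and C bases in percent (horizontal) against the number of enzyme sites (vertical) in the 300-base promoter windows of 80 genes in the poor windows, with 24 olfactory receptors as squares, 6 promoters overlapped by a row as triangles and other genes as circles. Each PvuII site is counted once, as the AluI site within it. The receptors lie between 24.3% and 47.7% G and C, and the promoters with a row between 53.3% and 76%. Other genes, without a row, lie between 6.67% and 82.3%.

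Over all 80 promoter windows of the poor windows, the median share of G and C was 49.3%, beside 63% over the 15101 autosomal ones, and the median number of CpG dinucleotides was 5, beside 22. An MspI site was found in 46.25% of the 80 and in 76.1% of the 15101, and a HaeIII site in 62.5% and 85.6%. An AluI site was found in 65% and 73.2%, an RsaI site in 18.75% and 27.3%, a BamHI site in 8.75% and 7.37% and a PvuII site in 17.5% and 17.8%. In percentage points, the MspI and HaeIII sites, of G and C alone, differed most. These figures describe promoter windows and not the rows, whose own sequence was not used here.

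A further pair is shown because it stands for the duplicated genes of the poor windows. SPATA31A7 and SPATA31A3 lie in different poor windows of chromosome 9, on opposite strands, and code for proteins of a family named for spermatogenesis. Their 250 bases before the start differ at 1 place, G50A, counted from 1 at the 5′ end with the base of SPATA31A7 first, and the capital marks it.
SPATA31A7 (chr9:61189786-61190035, plus strand): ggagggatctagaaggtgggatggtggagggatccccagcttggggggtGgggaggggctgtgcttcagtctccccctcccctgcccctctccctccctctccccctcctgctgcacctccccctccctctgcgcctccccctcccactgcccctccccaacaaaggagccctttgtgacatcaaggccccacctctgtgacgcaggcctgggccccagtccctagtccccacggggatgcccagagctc
SPATA31A3 (chr9:66992551-66992800, minus strand): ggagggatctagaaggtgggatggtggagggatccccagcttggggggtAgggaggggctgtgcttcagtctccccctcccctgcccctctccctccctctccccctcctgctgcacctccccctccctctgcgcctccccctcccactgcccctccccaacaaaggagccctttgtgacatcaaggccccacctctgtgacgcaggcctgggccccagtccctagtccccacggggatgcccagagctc

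SPATA31A5, in the window beside that of SPATA31A7, differs from it by T65C alone. The 250 bases of POTEG and POTEM on chromosome 14 are identical, and so are those of POTEB and POTEB2 on chromosome 15. A run of 50 bases that also occurs in the promoter window of another gene elsewhere was found in 33 of the 80 promoter windows, 41.25%, beside 3.23% of all 15101. In 24 of the 80 such runs made up at least 50% of all 50-base runs, beside 1.55% of all. A read that lies wholly in identical bases of several copies cannot be assigned to 1 of them by sequence, and how such reads were handled upstream is not given in the sources used here. The part of this in the low counts was not tested.

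The lists held 36277 to 40106 rows of 400 bp, and gene-bearing windows with 10 or more rows, 2467 in number, had a median of 43. The other gene-bearing windows were 13 with no row at all. Across the 2510 windows the row sum rose with the number of protein-coding genes (Spearman's rho 0.70, Pearson's r 0.62) and more weakly with those of lncRNA genes (0.45, 0.45) and pseudogenes (0.32, 0.16), a description over windows that share their lists and that are not independent of their neighbours. The file score was 0 for every row and read depth is unknown, so rows could be counted but not weighed.

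In the poor windows the median was 7 rows, from 1 to 9. Rows of all 3 lists occurred in 22 of the 30, and rows of 1 list alone in 4. The hPSC list had no row in 6 of the windows (20%), shLUC in 4 (13.3%) and shHNRNPU in 2 (6.67%). Over all 2510 gene-bearing windows 22 had no hPSC row (0.88%), 17 no shLUC row (0.68%) and 15 no shHNRNPU row (0.60%). The limit of 9 rows per window makes a missing list more frequent, so these counts are no separate result. The lists contributed 59 hPSC, 70 shLUC and 68 shHNRNPU rows, which merged by overlap of at least 1 bp into 135 distinct positions. The rule's upper edge fell in a run of similar windows: 9 windows had 9 rows and 11 had 10. Just inside were, for example, the windows of BRINP3 with 4 hPSC, 3 shLUC and 2 shHNRNPU rows and of ROCK1 with 2, 5 and 2. Just outside were those of DPP10 with 7, 1 and 2 rows and of PRDM9 with 4, 3 and 3.

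**Figure D2:**
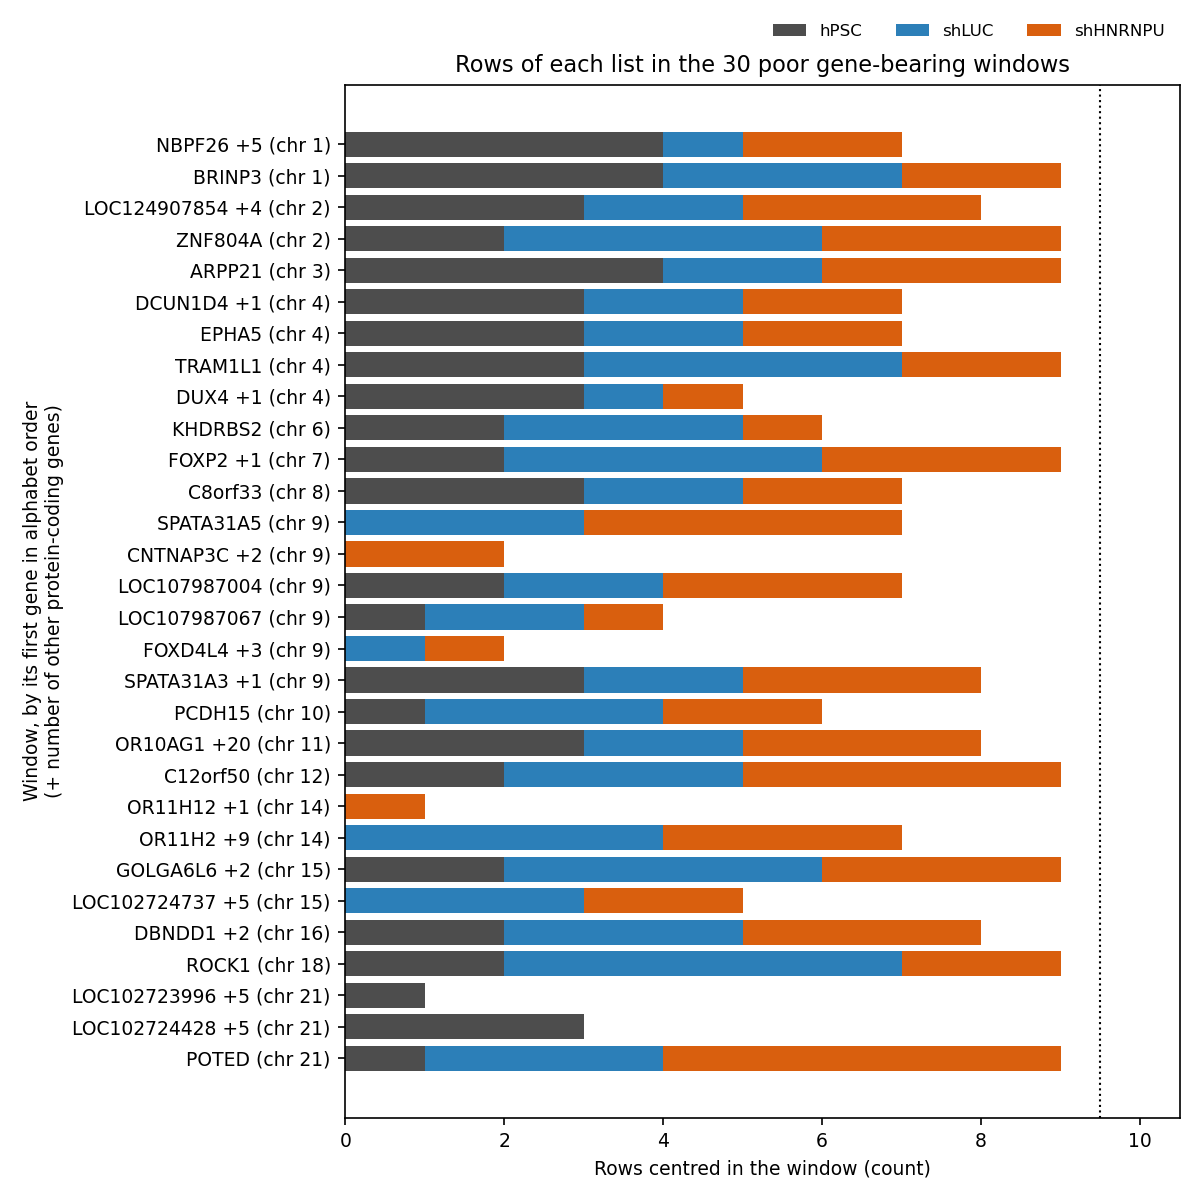
Number of rows (horizontal) in each of the 30 poor windows (vertical, in genome order, labelled by the first protein-coding gene in alphabetical order and the number of others), stacked by list, with the dotted line between 9 and 10 rows. The 2 windows of chromosome 21 named for LOC102723996 and LOC102724428 hold hPSC rows only, and 6 windows hold no hPSC row.

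Poor windows were grouped by the row counts around them and by chromosome ends. Of the 30, 18 were within 5 windows of a window without any row, 60% of them. Of the gene-bearing windows with 10 or more rows, 4.26% were. Both sets and the empty windows were chosen by the same row counts, so this contrast is a description and no separate result. A further 3 were the last window of an autosome and were cut short by the chromosome's end. Scaled to annotated length, as given below, these 3 lay above the rule's upper limit. The remaining 9 had no empty window within 5 windows, and no map of centromeres was used. Chromosome 9 had 6 of its 116 gene-bearing windows among the 30, chromosome 4 had 4 of 162 and chromosome 21 had 3 of 34. Chromosomes 5, 13, 17, 19, 20 and 22 had none.

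The classes were defined by empty windows nearby, so the counts around them are given as a description. For the 18 windows near an empty one, the median count on the side of lower coordinates was 2.5 rows at a distance of 1 Mb and 0 at 2 to 5 Mb. On the other side it was 9.5 at 1 Mb and 25.5 at 2 Mb. The 9 windows away from empty ones had a median of 9 rows, which the rule limits. The windows next to them had medians of 19 and 26 rows, with 9 as the lowest. At 2 to 5 Mb the medians lay between 24 and 36 rows, but some counts were low. Above the window of LOC124907854 there were 4 rows at 2 Mb and 3 at 5 Mb, and below that of FOXP2 there were 5 at 5 Mb. Before the 3 last windows the median was 102 rows at 1 Mb, with 31 rows before the window of DUX4 as the lowest.

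**Figure D3:**
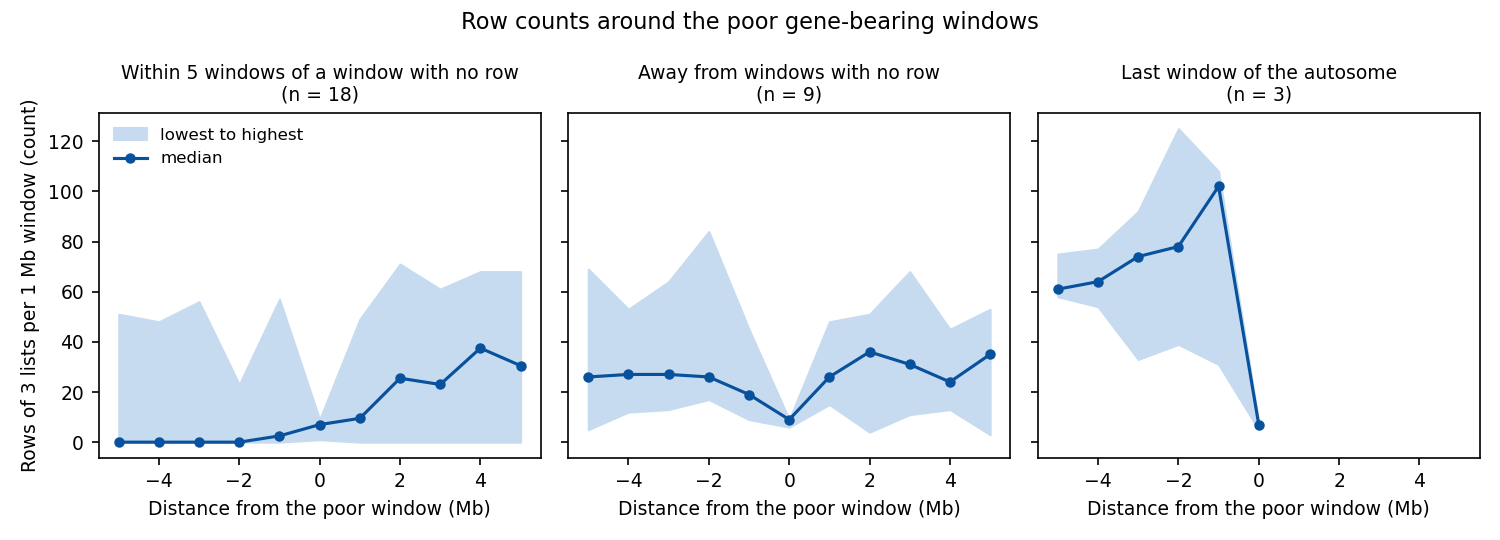
Rows of the 3 lists per 1 Mb window (vertical) against distance from a poor window in Mb (horizontal), for 18 windows within 5 windows of a window with no row, 9 away from any such window and 3 at the end of an autosome; points are medians and the shaded band runs from the lowest to the highest. The medians next to the 9 windows are 19 and 26, whereas that 1 Mb below the 18 windows is 2.5.

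The 3 windows at chromosome ends were much shorter than 1 Mb. Up to the last annotated gene or row, the window of C8orf33 on chromosome 8 spans 75722 bp, that of DUX4 and FRG2 on chromosome 4 spans 196239 bp, and that of DBNDD1, DRC4 and PRDM7 on chromosome 16 spans 222680 bp. Scaled to those lengths they held 92.4, 25.5 and 35.9 rows per Mb. These densities are upper values, since the length ends at the last gene or row and that of C8orf33 ends at a counted row. At these densities all 3 exceeded the rule's upper limit, so they are poor by count per window only. With last windows counted per annotated Mb, 27 windows with 177 rows and 90 genes were kept. In that set 22.2% of genes held a row and 9.04% of rows lay within 1 kb of a gene end, both within the reported intervals. DUX4, a homeobox transcription factor of the early embryo that is encoded in a subtelomeric repeat, held no row, and the 5 rows of its window comprised 3 hPSC, 1 shLUC and 1 shHNRNPU. DBNDD1 and DRC4, the latter a subunit of the dynein regulatory complex of cilia, overlap each other and shared 1 shHNRNPU row, 111 bp from an end of DBNDD1.

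Neighbouring poor windows formed 5 runs, which together held 12 of the 30. The longest was on chromosome 9 (chr9:63000001-67000000), where 4 windows held 6 hPSC, 7 shLUC and 8 shHNRNPU rows. Its protein-coding genes included FOXD4L4 and FOXD4L5, forkhead copies, ZNG1E and SPATA31A3, and ZNF658, a zinc finger gene, was the sole protein-coding gene of the run that held a row. That row came from hPSC, with its centre 10 bp from the gene's end. A second run lay just before it (chr9:60000001-62000000) around SPATA31A5, SPATA31A7 and CNTNAP3C, with 3 shLUC and 6 shHNRNPU rows and no hPSC row. None of its genes held a row, and the nearest gene end was at least 209623 bp from each.

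On chromosome 14 the run chr14:18000001-20000000 held 4 shLUC and 4 shHNRNPU rows and again no hPSC row. It carries POTEM, POTEG and 9 olfactory receptors, of which OR4N2 held 1 row of each hairpin list at the same coordinates. On chromosome 15 the run chr15:20000001-22000000 held 2 hPSC, 7 shLUC and 5 shHNRNPU rows among POTEB, POTEB2, POTEB3, GOLGA6L6 and 27 and 26 pseudogenes per window. Its unnamed gene LOC124903442 held an hPSC row, and a shLUC row lay 355 bp from the end of that gene.

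The run on the short arm of chromosome 21 (chr21:5000001-7000000) was the reverse, with 4 hPSC rows and no row of either hairpin list. All 12 of its protein-coding genes have LOC symbols, and several match named genes of the same chromosome at their promoters: the 300 bases of LOC102724428 are identical to those of SIK1, and those of LOC102724594 differ from U2AF1 at 1 place. LOC102724023 held 1 of the 4 rows. The other 3 lay between chr21:6358749 and chr21:6370357 in a noncoding RNA gene, LOC102724701. The absence of 1 or the other kind of list from these runs rests on 4 to 9 rows per run.

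Genes of large families were frequent among the 96. Olfactory receptors numbered 30, or 31.2% of the genes of the poor windows, beside 2.04% of all autosomal protein-coding genes. These 30 were 7.67% of the 391 autosomal olfactory receptors. OR4N2 alone among the 30 held a row, and over the genome 40 of 391 did (10.2%). The count leaned on 1 window, chr11:55000001-56000000, which carries 19 receptors with TRIM48 and TRIM51 and 26 pseudogenes. Without that window 11 of 75 genes were receptors, 14.7%, and with all windows cut from 500 kb 12 of 122 were, 9.84%.

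The window of chromosome 11 held 3 hPSC, 2 shLUC and 3 shHNRNPU rows, and none lay in any of its 21 protein-coding genes. The hairpin lists shared a row 1577 bp from OR5D18, and shHNRNPU had a row 3898 bp from OR5D13. A position of all 3 lists lay in the pseudogene ANKRD33BP6, 10238 to 10388 bp from TRIM51. With windows cut from 500 kb the same cluster fell into a window with 1 row and 4 receptors and a window with 18 rows and 36 receptors, the latter no longer poor.

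POTE genes, which code for ankyrin-repeat proteins, numbered 6 of 13 on the autosomes. POTED on chromosome 21 held a row of shLUC and a row of shHNRNPU at the same place, and the other 5 held none, while 2 of all 13 held one. The poor windows also held 3 of 15 SPATA31 genes and 2 of 14 NBPF genes, none with a row, and over the autosomes 4 of the 15 and 5 of the 14 held one. Genes with LOC symbols numbered 20, of which 3 held a row, beside 252 of 630 over the autosomes (40%). Both genes with a ZNF symbol, ZNF804A and ZNF658, held a row, beside 411 of 505 over the autosomes (81.4%).

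Pseudogenes outnumbered protein-coding genes in 23 of the 30 windows, 76.7%, beside 35.1% of those with 10 or more rows. The median window had 2 protein-coding genes, beside 6, and 6 pseudogenes, beside 5. Protein-coding genes covered a median of 8.33% of the window, beside 51.2%. The contrast was not the same in all classes. The 9 windows away from empty ones had a median of 1 protein-coding gene, 2 pseudogenes and 34.1% cover, and the 18 near empty windows had 2.5, 12 and 7.26%.

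Of the 96 genes, 23 held a row of any list somewhere along their length, 24% (95% Wilson interval 16.5 to 33.4), beside 74.6% of all autosomal protein-coding genes. All intervals here cover counting error only. The genes were also short, with a median of 8919.5 bp beside 24476.5 bp, and longer genes held rows more often in both sets. Among genes under 10 kb, 2 of 51 held a row, beside 46.8%. From 10 to 100 kb, 11 of 32 did, beside 81.3%, and of genes of 100 kb and more, 10 of 13 did, beside 98.7%. The choice of windows sets the direction of these differences.

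**Figure D4:**
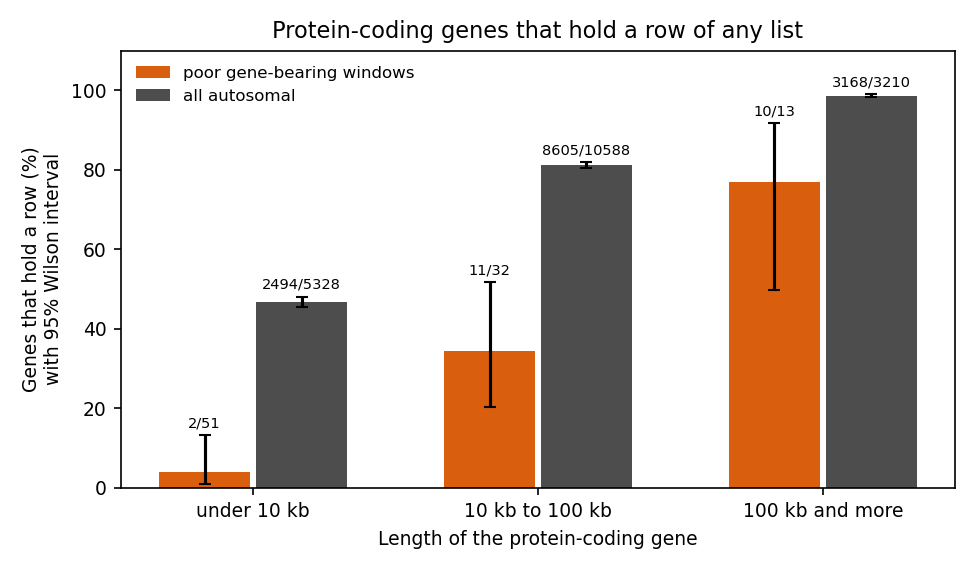
Share of protein-coding genes that hold a row of any list in percent (vertical) by gene length (horizontal), for the 96 genes of the poor windows and all 19126 autosomal genes, with 95% Wilson intervals and gene counts above the bars. The share rises with length in both sets, from 2 of 51 to 10 of 13 genes in the poor windows.

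PCDH15, a protocadherin of the tip links of hair cells, spans its whole window and held more rows in a poor window than any other of the 96 genes, 1 of hPSC, 3 of shLUC and 2 of shHNRNPU. The hairpin lists agreed at 2 of those positions, 222837 and 514859 bp from an end of the gene. PCDH15 extends beyond that window and over its 1825172 bp held 25 rows, 7 of hPSC, 10 of shLUC and 8 of shHNRNPU. ARPP21, a cAMP-regulated phosphoprotein of neurons, held 2 hPSC rows, 1 shLUC row and 1 shHNRNPU row. KHDRBS2, an RNA-binding protein that acts in splicing, held 2 hPSC and 2 shLUC rows within the poor window, all at different positions, and none of shHNRNPU.

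BRINP3, a gene of neural differentiation, held 2 hPSC rows and none of the hairpin lists, while 3 shLUC and 2 shHNRNPU rows lay between genes in the same window. ZNF804A held a shLUC and a shHNRNPU row at 1 position, and an hPSC row lay 853 bp outside its end. FOXP2, a forkhead transcription factor known for its part in speech, had 1 position inside the gene with both hairpin lists. An hPSC row lay 697 bp outside the gene's end. That hPSC row overlapped a shLUC row, itself 313 bp from the end. EPHA5, a receptor for ephrins, had an hPSC row with its centre 4 bp from its end, and the 4 hairpin rows of its window made up 2 shared positions outside the gene.

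Further genes held rows in the poor windows. DCUN1D4, which promotes cullin neddylation, held 1 hPSC, 1 shLUC and 2 shHNRNPU rows at 2 positions. NOTCH2, a Notch receptor that extends into the window before, held 1 row of each list in its poor window and 5 rows over its whole length. SEC22B, a SNARE of transport between the endoplasmic reticulum and Golgi, held an hPSC and a shHNRNPU row that overlapped in part. MDFIC, a regulator related to the MyoD family inhibitor, and C8orf33 held 1 hPSC row each, and LOC124907854 held a row of each hairpin list. The other 73 genes, among them TRAM1L1, FRG2, LRRC66 and PRDM7, held no row of any list. Of the 23 genes with a row, 21 held it within a poor window, and RGPD1 and C12orf50 held theirs in the part of the gene beyond it.

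Fewer rows of the poor windows than of all autosomal rows lay in protein-coding genes. The centre of 39 of 197 rows lay in a protein-coding gene body, 19.8% (14.8 to 25.9), beside 54.6% of all autosomal rows. Counting every annotated gene, noncoding genes and pseudogenes included, 89 of 197 did, 45.2% beside 66.7%. Of the hPSC rows 35 of 59 did, 59.3% (46.6 to 70.9) beside 64.8%. Of the shLUC rows 29 of 70 did, 41.4% (30.6 to 53.1) beside 67.7%. Of the shHNRNPU rows 25 of 68 did, 36.8% (26.3 to 48.6) beside 67.8%. The median distance from a row to the nearest end of a protein-coding gene was 94128 bp, beside 22369 bp in windows with 10 or more rows. Within 1 kb of such an end lay 19 rows, 9.64% (6.26 to 14.6), beside 15.5% of all autosomal rows. The poor windows also carried fewer genes, with a median of 2 beside 6. Protein-coding genes covered a mean of 17.8% of a poor window, beside 42.1% over all autosomal windows. The part of gene number and cover in these shares and distances was not tested.

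By list, 9 of 59 hPSC rows lay near a gene end, 15.3% (8.24 to 26.5), as did 5 of 70 shLUC rows, 7.14% (3.09 to 15.7), and 5 of 68 shHNRNPU rows, 7.35% (3.18 to 16.1). The intervals overlap. Over all autosomal rows the shares were 19.1%, 12.8% and 14.3%, in which hPSC was also the highest. The genes with the nearest end were NOTCH2, SEC22B, ZNF804A, ARPP21, EPHA5, FOXP2, C8orf33, ZNF658, LOC124903442, DBNDD1 and POTED. An end of DRC4 also lay within 1 kb of the row at DBNDD1. At POTED the centre of both hairpin rows lay 24 bp from the end.

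The next comparison asked whether the lists marked the same positions. In the poor windows 51 of 70 shLUC rows overlapped a shHNRNPU row, 72.9% (61.5 to 81.9), beside 70.9% of all autosomal shLUC rows. In turn 51 of 68 shHNRNPU rows overlapped a shLUC row, 75% (63.6 to 83.8), beside 77%. All 51 overlaps had identical coordinates. Whether the hairpin lists were called separately is not given, so agreement of the cells and of the list-making cannot be told apart. Agreement between the hairpin lists was thus within counting error of that over the autosomes, although the windows held few rows.

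The hPSC list shared far less. Of 59 hPSC rows, 7 overlapped a shLUC row, 11.9% (5.87 to 22.5), beside 14% of all autosomal hPSC rows, and 9 overlapped a shHNRNPU row, 15.3% (8.24 to 26.5), beside 15.6%. Of the 11 hPSC rows that overlapped a row of either hairpin list, 5 had identical coordinates. Identical coordinates were not counted over all autosomal rows, for these overlaps or for those between the hairpin lists. Whether the contrast is particular to the poor windows is therefore not known. Near misses occurred, as in the window of LOC107987004, where an hPSC row ended at chr9:63817856 and the shared hairpin row began at chr9:63817872. Among the 135 positions, 48 were in hPSC alone, 35.6% beside 40.2% of all autosomal positions. Both hairpin lists alone had 46, 34.1% beside 30.2%. In shLUC alone were 17, 12.6% beside 12.1%, and in shHNRNPU alone 13, 9.63% beside 7.39%.

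**Figure D5:**
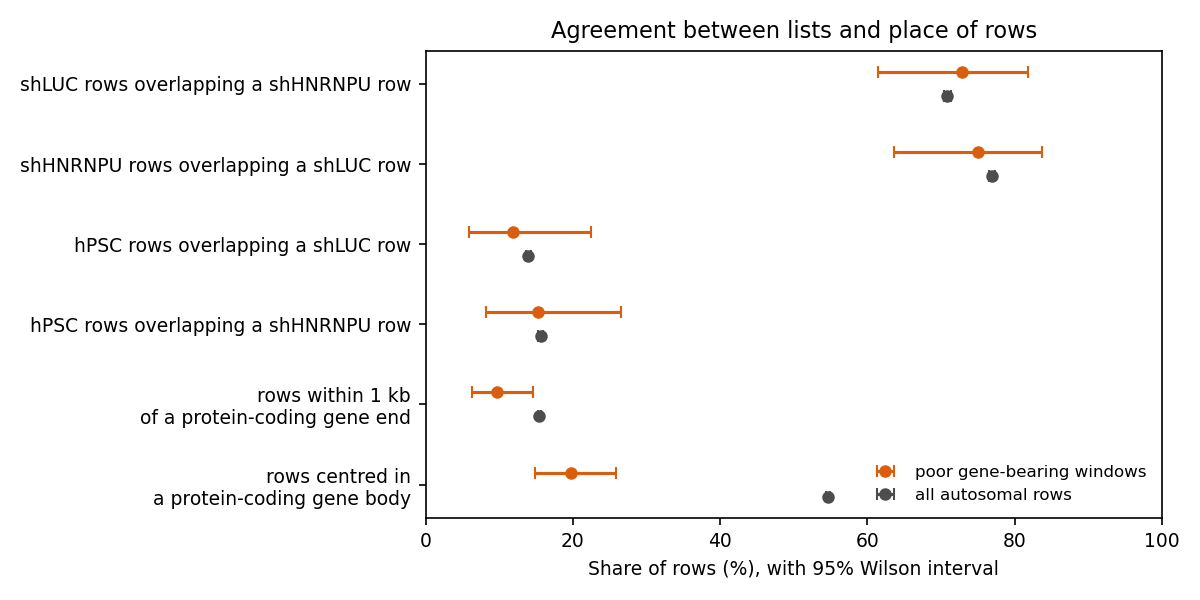
Share of rows in percent with 95% Wilson intervals (horizontal) for overlap between lists and for place relative to protein-coding genes (vertical), in the poor windows and over all autosomal rows. The shares of overlap lie close to those of all rows, for example 72.9% and 70.9% of shLUC rows with a shHNRNPU row, whereas 19.8% against 54.6% of rows lie in a gene body. Protein-coding genes cover a mean of 17.8% of a poor window and 42.1% of an autosomal window.

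Only 5 of the 135 positions, 3.70% (1.59 to 8.38), were in all 3 lists, beside 4.76% over the autosomes. At NOTCH2 the rows of the 3 lists had the same coordinates, chr1:120069252-120069651, with the centre 211 bp inside the gene's end at its start. At ARPP21 the hPSC row lay at chr3:35639281-35639680 and the hairpin rows 100 bp on, at chr3:35639381-35639780. The other 3 lay outside protein-coding genes: 9105 to 9225 bp from FRG2, in ANKRD33BP6 on chromosome 11, and 25548 to 25565 bp from ROCK1 on chromosome 18. NOTCH2 and ARPP21 were therefore the protein-coding genes with an end within 1 kb of a position in all 3 lists, and their upstream sequences, given above, were the richest in G and C of the 6 promoters with a row.

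The last comparison set the number of rows with and without the HNRNPU hairpin side by side. The log2 ratio of shHNRNPU to shLUC rows was -0.04 (-0.52 to 0.44) in the poor windows, beside -0.12 (-0.14 to -0.10) over all autosomal rows. Of the 30 windows 11 had more shHNRNPU than shLUC rows, 11 had fewer and 8 had equal numbers. The POTED window had 5 against 3 and the ROCK1 window had 2 against 5. The log2 ratio of hPSC to shLUC rows was -0.25 (-0.74 to 0.25), beside 0.02 over all autosomal rows. With 68 and 70 rows, a difference of the size seen over the autosomes was not detectable here.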

How the data were processed

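MAR-seq was done on 6 H1 samples in 3 groups, and the authors deposited 1 list of positions per group in place of 1 per sample. Whether a list holds pooled reads, positions found in both samples or positions of 1 sample is not given in the sources used here, and an rp1 tag in the hPSC row names is not explained. The submitters' processing notes name cutadapt, Bowtie2, SAMtools, MACS2, deepTools and hg38, without versions, roles or order, so the caller's threshold, the use of the input and the handling of reads that map to several places are not given. The other values in the deposited files are a chromosome, a start and an end per row, with a width of 400 bp and a score of 0 throughout. Read depth is unknown. The paper supplied reports other experiments, so no method was taken from it. Groups were taken from the labels and matched to lists by name.

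Rows were assigned to 1 Mb windows by their centre, and a window was kept with 1 to 9 rows and a protein-coding gene of RefSeq GRCh38.p14. Rows overlapped if they shared at least 1 bp, and a row lay near a gene if its centre was within 1 kb of either boundary. Exons and UTRs were not used here. The gene table and the lists share the build. Shares carry 95% Wilson intervals, which cover counting error only and treat rows as independent. A log2 ratio of row counts computed from the deposited lists has the interval of the matching binomial share. With 1 list per group and no values per sample, no test was run.

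The members and lists were chosen with earlier results of these data known. Genes were named by a rule: those that hold a row in the 10 windows with the most protein-coding genes or in the 5 longest runs, the 20 with the most rows, and those within 1 kb of a position of all 3 lists. Others named were chosen after their values were seen. Promoter sequences came from RefSeq, and 80 of 96 genes matched by gene ID. The code was tested on simulated data, in which 20 of 20 planted windows were found. Tables were made with pandas 2.3.3 and numpy 2.4.6, intervals with scipy 1.17.1 and plots with matplotlib 3.10.9, all under Python 3.11.15.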

Additional observations from a re-analysis of the deposited data

How the results depend on the processing

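Of 57 values under 12 alternatives, 43 stayed within the reported value's interval, or within 1.5 times for the number of windows. The number of windows was 86 when distinct positions were counted, 6 with an upper limit of 4 rows, 95 with a limit of 14, and 19 without windows that touch an empty one or a chromosome end. With the limit of 4 (13 rows), 0 of 5 hPSC rows overlapped a shLUC row, and 0 of 13 rows lay near a gene end (Wilson upper bounds 43.4% and 22.8%, and 60% and 23.1% by the limit of 3 counts that a count of 0 allows). Under that limit 4.55% of genes held a row, 4.55% were olfactory receptors, and the log2 ratio of shHNRNPU to shLUC was 0.74. With a limit of 14, 36% of genes held a row. The olfactory receptor share was 9.84% with windows cut from 500 kb, when 12 of 122 genes were receptors in place of 30 of 96. Among the 4 alternatives added after seeing the data, leaving out the chromosome 11 window with the most genes gave a receptor share of 14.7%, and selecting on the hairpin lists alone (1 to 6 rows) gave a receptor share of 21% and a share of genes with a row of 35.2%. No paired analysis was possible because there are no values per sample, only 1 list for each group, so no replicate could be left out either. Unknown read depth and small row counts limit every share.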
